A study of Mus musculus with 5 samples.

Results

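The nuclear-encoded subunits of the mitochondrial respiratory chain and ATP synthase were examined in RNA-seq of mouse haematopoietic stem cells (HSCs). Members were the genes whose symbol starts with Ndufa, Ndufb, Ndufc, Ndufs, Ndufv, Sdha to Sdhd, Uqcr, Atp5, or Cox4 to Cox8, without the Ndufaf and Sdhaf assembly factors. This gave 78 of the 11643 genes in the deposited table, of which 36 belong by symbol to complex I, 4 to complex II, 7 to complex III, 14 to complex IV and 15 to complex V. The other 2, Atp5s and Atp5sl, match a prefix but are not subunits of ATP synthase. They were kept as members and counted under no complex. Ndufa4 was counted in complex I by its name, although its protein is now placed in complex IV. All 78 members had a mean of at least 1 FPKM (fragments per kilobase of transcript, scaled to the number of mapped fragments) over the libraries and were tested.

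Cells were taken from the marrow of C57BL/6 animals by a gate for CD150 without CD48 among lineage-negative cells bearing c-Kit and Sca-1. The 3 control libraries have control as their genotype and a tag starting VavC in their titles, which the labels do not explain. The 2 others are labelled Tle1/3/4-deficient: each of the Tle genes was floxed and Vav-Cre, which acts throughout the blood system, was the deleter, so the deletion is not limited to HSCs. The design asks how loss of these co-repressors alters expression in HSCs. Neither age nor whether libraries came from separate animals is stated, so p-values rest on variation among these libraries that may be technical.

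Column totals ran from 599137 to 683822 FPKM, and the absolute depth is unknown. Tle3 went against the label, at 2.48, 4.97 and 5.61 FPKM in controls versus 32.3 and 31.6 FPKM. Tle1, at 1.83, 0.811 and 3.33 FPKM in controls versus 2.84 and 4.37 FPKM, was not lower under the deficient label. Tle4, at 5.67, 0.0129 and 5.29 FPKM in controls versus 0.353 and 0.203 FPKM, was lower than in control replicates 1 and 3 but not than in control replicate 2. FPKM per gene includes exons outside the floxed part, and directions are only as sure as the labels. Of the genes behind the gate, Kit was at 165, 185 and 149 FPKM in controls versus 102.3 and 101.6 FPKM, below every control in both. Slamf1 (CD150) was at 14.9, 24.0 and 21.1 FPKM in controls versus 31.8 and 31.0 FPKM, above every control in both. Neither was called among all genes (limma, adjusted p = 0.515 for Kit and 0.690 for Slamf1). In other genes deficient-labelled replicate 2 stood apart. It had the lowest Ly6a (Sca-1), at 14.05 FPKM against 57.8 or more elsewhere, and the highest Cd48, at 23.4 FPKM against 13.01 or less. It also had the highest value of all 16 granulocyte-monocyte markers examined. None of these markers was at 0 in any library. They summed to 995 to 3459 FPKM in the controls, 11895 in deficient-labelled replicate 1 and 70355 in replicate 2, where they made up 11.7% of the column total. Of 9 erythroid markers measured, 7 were highest in the same library, with sums of 17.9 to 40.4 FPKM in the controls, 107 in deficient-labelled replicate 1 and 612 in replicate 2. Alas2, Ermap and Rhag were listed at 0 in at least 1 library. Megakaryocyte and platelet markers (9 measured, Selp at 0 in some library) summed to 724 to 1457 FPKM in controls, 8398 in deficient-labelled replicate 1 and 3885 in replicate 2. The part of other cells in the results was not tested. Below, values follow the order of control replicates 1, 2 and 3 and, after "versus", deficient-labelled replicates 1 and 2.

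The respiratory chain passes electrons from NADH (through complex I) and succinate (through complex II) to ubiquinone, then through complex III and cytochrome c to oxygen at complex IV. Complexes I, III and IV pump protons, and complex V (ATP synthase) uses the gradient to make ATP. Apart from complex II, each complex joins subunits encoded in the nucleus with a few encoded in mitochondrial DNA, so the genes described here are only the nuclear part. HSCs are known for holding mitochondria in a state of low respiration and for relying largely on glycolysis, and respiration rises as they leave quiescence and differentiate.

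No member passed the test between the groups, and the deficient-labelled libraries lay on opposite sides of the controls. The 78 members summed to 28016, 29749 and 30930 FPKM in controls versus 35301 and 21423 FPKM. Deficient-labelled replicate 1 was thus above every control and replicate 2 below every control. As a share of the column total the members took 4.54%, 4.63% and 4.76% in the controls, 5.16% in deficient-labelled replicate 1 and 3.58% in replicate 2. With the 16 granulocyte-monocyte markers left out of the totals, the shares were 4.55%, 4.66%, 4.78%, 5.25% and 4.05% in the same order. Deficient-labelled replicate 2 was still the lowest but nearer to the controls. Other transcripts of such cells stay in the totals, so this cannot show what part those cells had in the difference. The ratio of the group means of the sums, deficient-labelled over control, was 0.959. Leaving out deficient-labelled replicate 2 gave 1.19, and leaving out replicate 1 gave 0.725. In these bulk samples, fewer cells of a type and less RNA per cell cannot be told apart.

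**Figure D1:**
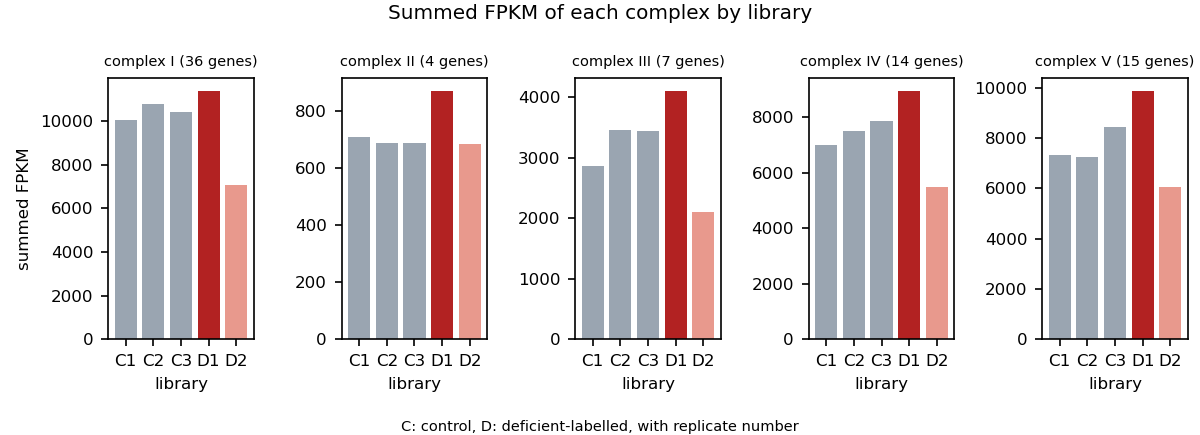
Summed FPKM of the member genes of complexes I to V (1 panel each, vertical axis from 0 and scaled per panel) in the 3 control libraries (C1 to C3, grey) and the 2 deficient-labelled libraries (D1 and D2, red and pink), 1 bar per library. In each panel D1 is the highest bar and D2 the lowest, although for complex II D2 (687 FPKM) is close to the controls (690.0 to 709 FPKM). As a share of the column total (not drawn) this order did not hold for complexes I and II. Complex I took 1.67% in D1, below C2 at 1.68%. Complex II took 0.1147% in D2, within the controls (0.1061% to 0.1150%).

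At an adjusted p under 0.05, 0 of 78 members were called by limma, beside 0.0189% of the 10570 genes tested. At an unadjusted p under 0.05 there were 2 members, Cox4i2 and Ndufs7, beside 8.45% of all genes. The median log2 fold change (deficient-labelled minus control, on log2(FPKM + 1)) was -0.078 over the members and -0.10 over all genes tested. Negative values numbered 47 and positive values 31, with 44.3% of all genes positive. After median-of-ratios scaling, which sets the median of all genes at 0.014, the members' median was 0.050 and 44 were positive (50.9% of all genes), so the balance of signs changed with the scaling. In 10 members both deficient-labelled values lay below every control (15.9% of all genes did), and in 5 both lay above every control (10.2% of all genes). Scaled, these counts were 6 and 8, against 12.5% and 13.6% of all genes. Neither count is above the background. Without control replicate 1 the first count was 19 (23.0% of all genes in the same run), and without control replicate 3 the second was 8 (15.1%). Without deficient-labelled replicate 1 the first was 49 (33.5% of all genes), and without deficient-labelled replicate 2 the second was 36 (26.7%). At an unadjusted p under 0.05 there were 15 members without deficient-labelled replicate 1 (10.4% of all genes) and 7 with quantile normalization (8.68%).

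What the members had in common was the order of the libraries. Deficient-labelled replicate 1 was above replicate 2 in 67 of 78 members, compared with 54.1% of all genes tested (63 members and 48.1% with median-of-ratios scaling). Replicate 1 exceeded every control in 36 members (26.5% of all genes) and replicate 2 was under every control in 49 (33.4% of all genes). In 45 members (57.7%) deficient-labelled replicate 2 was the lowest of the 5 libraries, against 25.6% of all genes. In 35 members (44.9%) deficient-labelled replicate 1 was the highest, against 21.5% of all genes. Both held in 23 members (29.5%), against 6.43% of all genes. Members are abundant transcripts, and among the 1037 genes averaging 100 FPKM or more, a level chosen after the values were seen, replicate 1 was above replicate 2 in 75.4%, replicate 2 lowest in 46.2%, replicate 1 highest in 32.5% and both in 14.8%. With median-of-ratios scaling replicate 2 was lowest in 31 members (39.7%, against 19.1% of all genes) and replicate 1 highest in 36 (46.2%, against 21.6% of all genes). Among the genes averaging 100 FPKM or more these scaled shares were 30.5% and 33.4%, nearer to those of the members. Replicate 1 was above replicate 2 in 67.2% of these abundant genes after scaling, against 80.8% of members. With quantile normalization replicate 1 was the highest in 17 (20.8% of all genes), close to the background, while replicate 2 was the lowest in 37 (24.0% of all genes).

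**Figure D2:**
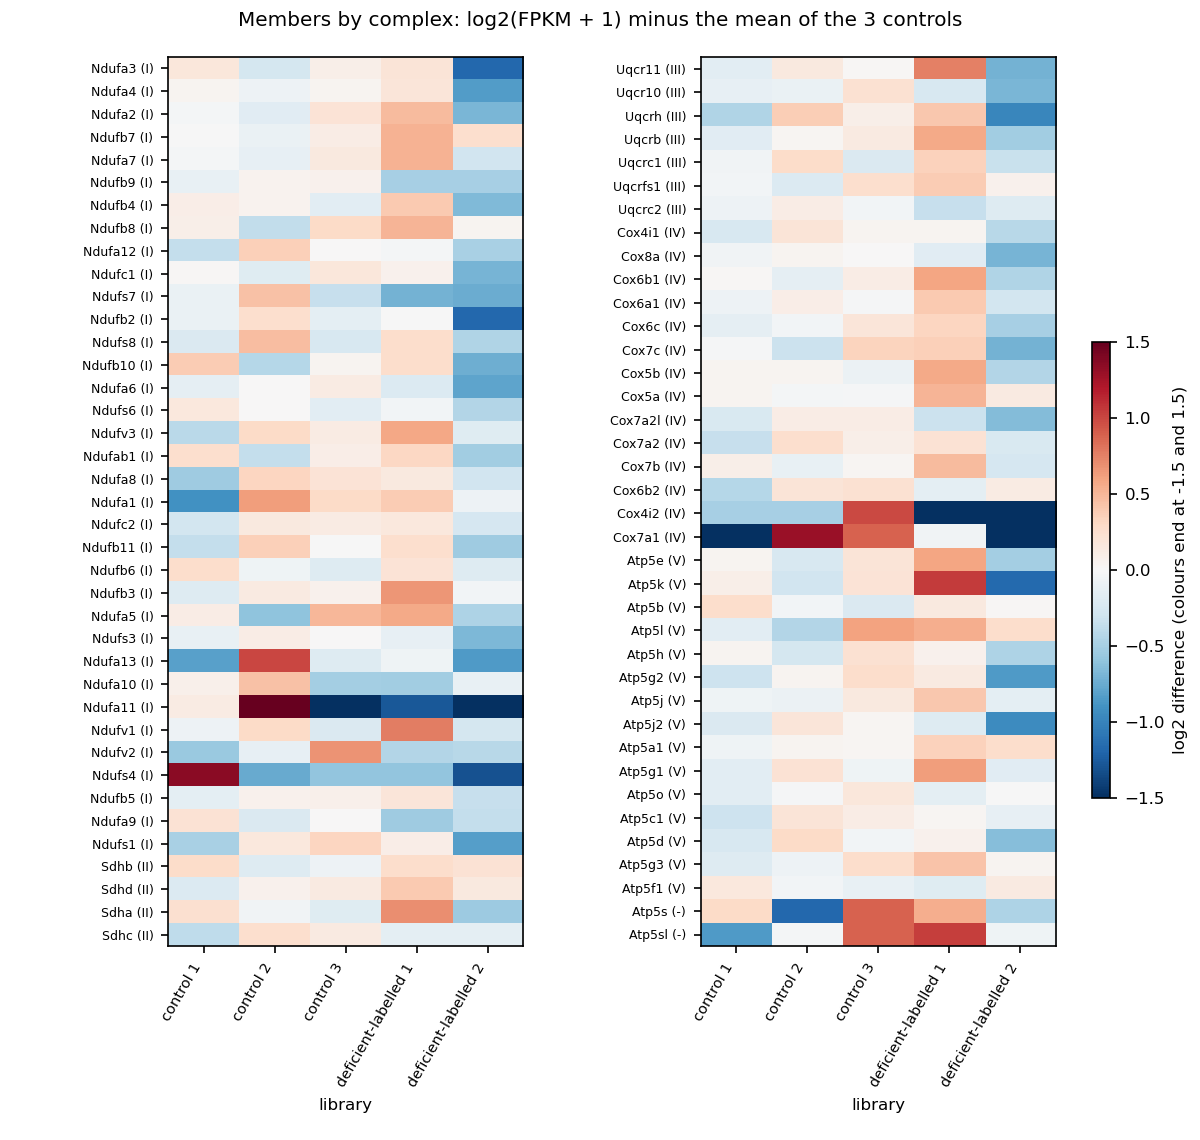
Colour map of the members (rows, 1 member not shown, with the complex in brackets and a dash for Atp5s and Atp5sl, ordered within each complex by mean FPKM) in the 5 libraries (columns). Colour is log2(FPKM + 1) minus the mean of the 3 controls, red above and blue below, ending at -1.5 and 1.5. The column of deficient-labelled replicate 1 is mostly red and that of replicate 2 mostly blue, with Ndufa11, Ndufs4, Cox4i2 and Cox7a1 also varying strongly among the controls.

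Complex I, NADH dehydrogenase, had 36 members with a median log2 fold change of -0.19 (26 negative and 10 positive). Their sums were 10064, 10812 and 10427 FPKM in controls versus 11402 and 7067 FPKM. Leaving out deficient-labelled replicate 1 gave a median of -0.48, leaving out replicate 2 gave 0.17, and the median was -0.059 after median-of-ratios scaling. The 29 accessory subunits had a median of -0.14, with 21 negative.

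Among the core subunits Ndufs7, which holds the iron-sulphur cluster next to the quinone site, was at 385, 560.2 and 325 FPKM in controls versus 252 and 245 FPKM. All 3 controls were above both deficient-labelled libraries (log2 fold change -0.73, SE 0.30), but Ndufs7 was not called among all genes (limma, adjusted p = 0.564). Ndufs3, of the arm that leads to quinone, was at 151, 176 and 163 FPKM versus 150.02 and 102 FPKM, where the highest deficient-labelled value nearly met the lowest control (log2 fold change -0.40, adjusted p = 0.719). Leaving out deficient-labelled replicate 1 gave -0.67 for Ndufs3, and leaving out replicate 2 gave -0.12. Ndufv1, which binds NADH and flavin, was at 107, 138 and 97.1 FPKM in controls and deficient-labelled replicates 1 and 2 lay either side, at 192 and 93.8 FPKM. Its partner Ndufv2 was at 87.1, 117 and 205 FPKM versus 94.5 and 95.8 FPKM, within the range of the controls. Ndufs8, a ferredoxin-like subunit, was at 267, 428 and 263 FPKM versus 373 and 227 FPKM. Ndufs1, the largest core subunit, was the least abundant member of complex I per length, at 29.5, 46.7 and 52.2 FPKM in controls versus 44.8 and 23.02 FPKM.

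The most abundant complex I members per length were small accessory subunits. Ndufa3 was at 1027, 761 and 974 FPKM in controls versus 1047 and 404 FPKM. Ndufa4 was at 897, 829.8 and 899 FPKM versus 994 and 488 FPKM, and Ndufa2 at 449, 406 and 529 FPKM versus 637 and 286 FPKM. In Ndufa4 and Ndufa2 replicate 1 exceeded every control, in Ndufa3 it did so by a small margin, and in all 3 replicate 2 was far below. Accessory subunits whose groups did not overlap were Ndufb9, Ndufa6 and Ndufa9 (lower) and Ndufb7 (higher). Ndufb9, of the membrane arm, was at 420.1, 469.8 and 474 FPKM versus 321 and 321 FPKM. The deficient-labelled libraries gave nearly the same value (log2 fold change -0.50, SE 0.23, adjusted p = 0.618). Ndufa6 was at 306, 338 and 366 FPKM versus 291 and 194 FPKM (log2 fold change -0.50, adjusted p = 0.663). Ndufa9, which lies near the quinone site, was at 117, 86.9 and 102 FPKM versus 69.6 and 78.9 FPKM (log2 fold change -0.44, adjusted p = 0.695). Ndufb7 was at 396, 371 and 429 FPKM versus 570.4 and 474 FPKM (log2 fold change 0.38, SE 0.24, adjusted p = 0.692). Across every alternative fit these 4 kept their sign and did not pass. Without deficient-labelled replicate 1 the log2 fold change was -0.79 for Ndufa6 and 0.25 for Ndufb7, and without replicate 2 it was -0.20 for Ndufa6 and 0.52 for Ndufb7.

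Some accessory subunits varied more among the controls than between the groups. Ndufa11, needed to join membrane-arm modules, was at 141, 429 and 35.01 FPKM in controls versus 52.8 and 29.8 FPKM. Ndufs4, whose loss in humans and mice causes Leigh syndrome, was at 290.2 FPKM in control replicate 1 and at 66.3, 74.4, 74.5 and 44.9 FPKM in the others. Its high value thus comes from a single control. Ndufa13 (Grim-19) was at 84.1, 297 and 130.0 FPKM in controls versus 141 and 82.1 FPKM. Ndufa1, an X-linked subunit, was at 99.4, 291 and 229 FPKM versus 244 and 178 FPKM. None of these 4 passed (limma, adjusted p of 0.657 for Ndufa11, 0.709 for Ndufs4, 0.831 for Ndufa13 and 0.946 for Ndufa1).

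Complex II, succinate dehydrogenase, is also an enzyme of the tricarboxylic acid cycle and is wholly nuclear-encoded. Its 4 members had a log2 fold change median of 0.16, with 3 positive. The median moved to -0.00044 without deficient-labelled replicate 1, to 0.33 without replicate 2, to 0.10 and 0.093 without control replicates 2 and 3, and to 0.29 with median-of-ratios scaling. Sdha, the flavoprotein that oxidises succinate, was at 174, 143 and 129.6 FPKM in controls versus 241 and 101 FPKM, which lay either side of all controls. Sdhb, the iron-sulphur subunit, was at 279, 203 and 219 FPKM versus 278 and 269 FPKM. The membrane anchor Sdhd was at 155, 188 and 197 FPKM versus 235 and 198 FPKM, so that the groups did not overlap but replicate 2 exceeded the highest control only slightly (log2 fold change 0.27, SE 0.26, adjusted p = 0.792). The fold change of Sdhd was 0.17 without control replicate 1 and 0.15 without deficient-labelled replicate 1. Sdhc, the other anchor, was at 101, 157 and 145 FPKM versus 119 and 119 FPKM, inside the range of the controls.

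Complex III, the cytochrome bc1 complex, showed the highest ratio between the deficient-labelled libraries among the 5 complexes. Its 7 members summed to 4111 FPKM in replicate 1 and 2103 FPKM in replicate 2, a ratio of 1.95, and to 2860, 3467 and 3439 FPKM in the controls. The median log2 fold change was 0.0068, with 4 positive and 3 negative, with 0.38 when deficient-labelled replicate 2 was left out and -0.52 when replicate 1 was. Uqcr11, a small accessory subunit, was at 750.5, 929 and 849.95 FPKM in controls versus 1421 and 513 FPKM. The hinge protein Uqcrh was at 361, 636 and 524 FPKM versus 655 and 249 FPKM, and Uqcrb, which binds near the quinone site, at 341, 391 and 423 FPKM versus 570.3 and 268 FPKM. In all 3 the controls lay between the deficient-labelled libraries. Uqcr10 was at 863, 883 and 1102 FPKM versus 796 and 585 FPKM, both below every control (log2 fold change -0.47, SE 0.27, adjusted p = 0.668). For Uqcr10 leaving out deficient-labelled replicate 1 gave -0.69, and leaving out replicate 2 gave -0.25. Of the core proteins, Uqcrc1 was at 316, 397 and 282 FPKM versus 419 and 259.6 FPKM, and Uqcrc2 at 112, 127 and 115 FPKM versus 92.6 and 102 FPKM. Uqcrc2 was below every control in both (log2 fold change -0.27, adjusted p = 0.795). Uqcrfs1, the Rieske iron-sulphur protein, was at 117, 105 and 144 FPKM versus 157 and 126 FPKM.

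Complex IV, cytochrome c oxidase, had 14 members with a median log2 fold change of -0.053 (9 negative and 5 positive). The median was -0.18 without control replicate 1, 0.27 without deficient-labelled replicate 2, -0.45 without replicate 1 and 0.075 after median-of-ratios scaling. The 11 members other than the tissue-restricted forms, counted by symbol and including Cox7a2l, all had replicate 1 above replicate 2. They summed to 8874 and 5378 FPKM in these libraries against 6929, 7404 and 7735 FPKM in the controls. Cox4i1, the regulatory subunit that binds ATP, was at 936, 1267 and 1135 FPKM in controls versus 1139 and 829.6 FPKM. Cox6b1, which faces the intermembrane space, was at 918, 824 and 982 FPKM versus 1367 and 660.2 FPKM, and Cox5b at 676, 676 and 619 FPKM versus 971 and 483 FPKM. In both genes the controls were close together and the deficient-labelled libraries lay either side. Cox5a was at 392, 374 and 378 FPKM versus 543 and 419 FPKM, above every control in both (log2 fold change 0.32, SE 0.25, adjusted p = 0.734). Cox8a, a small subunit, was at 1037, 1109 and 1084 FPKM versus 960.1 and 664 FPKM, below every control in both (log2 fold change -0.43, SE 0.27, adjusted p = 0.688). Cox7a2l was at 329, 417 and 415 FPKM versus 308 and 246 FPKM (log2 fold change -0.48, SE 0.26, adjusted p = 0.652). Without deficient-labelled replicate 1 these log2 fold changes were 0.13 for Cox5a, -0.70 for Cox8a and -0.65 for Cox7a2l, and without replicate 2 they were 0.51, -0.16 and -0.32. Its relative Cox7a2 was at 226, 341 and 306 FPKM versus 334 and 245 FPKM and overlapped. Cox6a1 and Cox7b, the general forms of their pairs, were at 778, 881 and 811 FPKM versus 1079 and 682 FPKM and at 178, 155 and 171 FPKM versus 233 and 141 FPKM.

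Tissue-restricted forms of complex IV subunits were low, with 1 exception. Cox4i2, the lung-enriched counterpart of Cox4i1 that is induced at low oxygen, was at 8.77, 8.76 and 26.4 FPKM in the controls, at 3.91 FPKM in deficient-labelled replicate 2 and listed at 0 in replicate 1. By limma across all genes it had the lowest unadjusted p of the members (adjusted p = 0.505, log2 fold change -2.64, SE 0.92). Leaving out deficient-labelled replicate 1 gave -1.49 and leaving out replicate 2 gave -3.78, and a value of 0 in this table can be a failed estimate. Cox7a1, the heart and skeletal muscle form, was listed at 0 in control replicate 1 and deficient-labelled replicate 2 and was at 10.1, 7.38 and 3.38 FPKM in the others. Cox6b2, a form known from testis, was at 61.9, 95.7 and 97.8 FPKM in controls versus 75.01 and 90.6 FPKM. The log2 fold change was -0.017 (SE 0.32), and the level per length was below that of Cox6b1 in every library.

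Complex V had 15 members with a median log2 fold change of -0.021 (8 negative and 7 positive), and leaving out deficient-labelled replicate 1 gave -0.15, leaving out replicate 2 0.15. They summed to 7340, 7230 and 8418 FPKM in controls versus 9879 and 6055 FPKM. In the F1 head, where ATP is made, the large alpha and beta subunits showed little of the difference between the deficient-labelled libraries. Atp5b, the catalytic beta subunit, was at 885, 718 and 637 FPKM in controls versus 819 and 747 FPKM. Atp5a1, the alpha subunit, was at 359, 386 and 383 FPKM versus 478 and 451 FPKM, above every control in both (log2 fold change 0.30, SE 0.23, adjusted p = 0.734). The central stalk subunit Atp5c1 was at 279, 398 and 374 FPKM versus 354 and 318 FPKM. By contrast Atp5d, of the same stalk, was at 308, 443 and 353 FPKM versus 379 and 234 FPKM, and the very small Atp5e at 1008, 825 and 1119 FPKM versus 1474 and 683 FPKM. Levels differed several-fold per length among subunits of the same F1 unit.

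Atp5k, the e subunit that helps pair ATP synthases in the membrane, was at 952, 734 and 1032 FPKM in controls versus 1856 and 398 FPKM. The 4.66-fold ratio between these 2 libraries was the highest of the 76 members at or above 1 FPKM in all 5 libraries. Atp5k is among the members with a near-identical copy elsewhere in the genome. Of the other membrane and peripheral stalk subunits, Atp5l (subunit g) was at 499, 409.8 and 843 FPKM versus 813 and 667 FPKM. Atp5j2 (subunit f) was at 447, 589.5 and 530.0 FPKM versus 455 and 269 FPKM. Atp5h was at 644, 523 and 736 FPKM versus 655 and 456 FPKM, and Atp5j at 482, 475 and 559 FPKM versus 670.0 and 455 FPKM. Atp5o and Atp5f1 were higher in replicate 2 than in replicate 1, at 353 against 321 FPKM and 192 against 155 FPKM.

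The c ring, which turns as protons pass, is made from 3 genes that encode the same mature protein with different targeting peptides. Atp5g2 was at 499, 636 and 745 FPKM in controls versus 680.3 and 342 FPKM. Atp5g1 was at 308, 401 and 328 FPKM versus 529 and 305 FPKM, and Atp5g3 at 157, 171 and 216 FPKM versus 241 and 185 FPKM. The order Atp5g2, Atp5g1, Atp5g3 held in each of the 5 libraries. None of the 3 passed (limma, adjusted p = 0.803 for Atp5g2, 0.863 for Atp5g1 and 0.836 for Atp5g3). The prefix matches Atp5s and Atp5sl were lower than any complex V subunit, at 10.9 to 48.6 FPKM and 11.5 to 45.5 FPKM over the libraries.

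**Figure D3:**
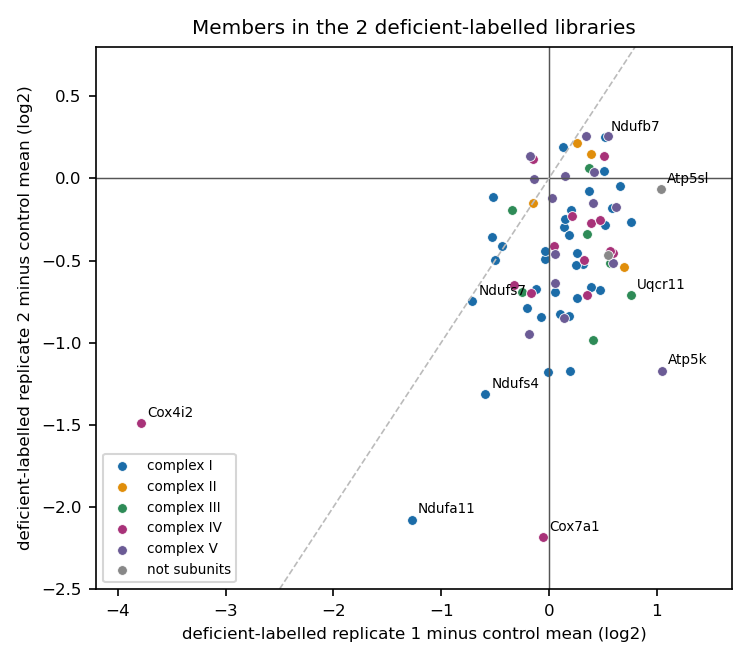
Each point is a member, coloured by complex. The horizontal axis is log2(FPKM + 1) in deficient-labelled replicate 1 minus the mean of the 3 controls, the vertical axis the same for replicate 2, and the dashed line marks equal values. Most points (67 of 78) lie below the dashed line, many with a positive value in replicate 1 and a negative value in replicate 2, and Cox4i2 and Ndufa11 are far below 0 in both.

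The difference between the deficient-labelled libraries was largest in the members with the shortest transcripts and did not fall steadily with length. Transcript lengths were taken by symbol from GENCODE principal transcripts and ran from 371 to 3171 bases, with a median of 821.5. In the 21 members of at most 600 bases the median of log2(FPKM + 1) in replicate 1 minus replicate 2 was 0.99, and replicate 1 was above replicate 2 in 20 of them. It was 0.50 in the 34 members of 601 to 1200 bases and 0.69 in the 23 longer ones, where replicate 1 was above in 16. Members in which replicate 2 was at or above replicate 1, picked out after their values were seen, included Ndufb9, Ndufv2, Ndufa9, Ndufa10, Sdhc, Uqcrc2, Cox4i2, Cox6b2, Atp5o and Atp5f1. Spearman's rho between that difference and length was -0.26 over the 78 members. Genes of at least 100 FPKM that are not members gave -0.24 over 957 genes with a length, and medians of 0.78, 0.51 and 0.25 in the same 3 length ranges. All points share the same 2 libraries, and the part of transcript length in the result was not tested. Levels were also higher for shorter members (rho = -0.53 between mean FPKM and length).

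**Figure D4:**
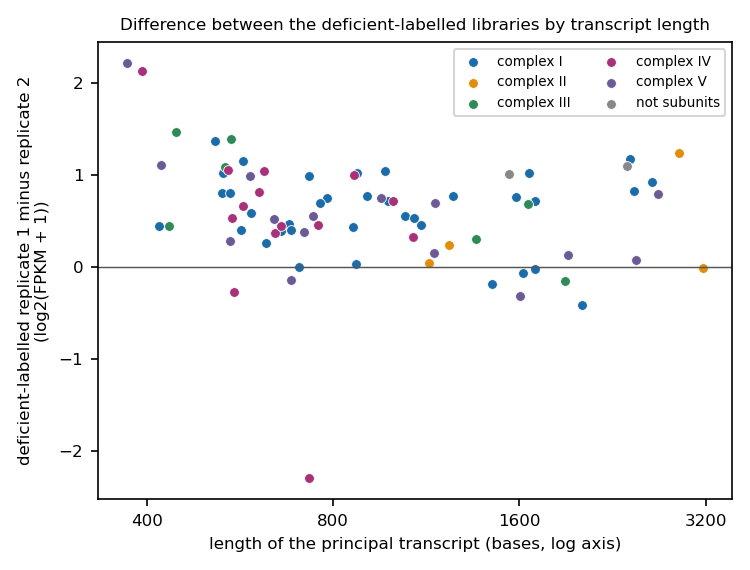
Each point is a member, coloured by complex, placed by the length of its principal transcript in bases (log axis) and by log2(FPKM + 1) in deficient-labelled replicate 1 minus replicate 2. Points above the line at 0 are higher in replicate 1. The highest values, above 2, are those of Atp5k and Cox7a1 at under 400 bases, and the lowest is Cox4i2, listed at 0 in replicate 1.

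Other abundant gene families were set beside the members, without a test of the difference. In cytosolic ribosomal protein genes (64 genes) replicate 1 was above replicate 2 in 63, and the summed FPKM was 143853 in replicate 1 and 83096 in replicate 2, a ratio of 1.73. For the members this ratio was 1.65. It was 1.38 for 33 proteasome subunit genes and 1.30 for 72 mitochondrial ribosomal protein genes, against 1.14 for all genes tested. Within the members the ratio was 1.27 for complex II, 1.61 for complex I, 1.63 for complex V and 1.64 for complex IV. Of these families the cytosolic ribosomal proteins had the ratio nearest to that of the members. Their controls summed to 124328, 154015 and 164988 FPKM, so replicate 1 lay within the controls and only replicate 2 was below. Proteasome genes summed to 5611, 5818 and 5303 FPKM in controls versus 7018 and 5077 FPKM. Mitochondrial ribosomal protein genes summed to 6590, 6835 and 6727 FPKM versus 6930 and 5333 FPKM. In these 2 families, as in the members, the summed FPKM of the deficient-labelled libraries lay either side of the controls. As a share of the column total this held for the members but for neither family. Mitochondrial ribosomal protein genes took 1.013% and 0.8901% in deficient-labelled replicates 1 and 2, both below every control (1.035% to 1.069%). Proteasome genes took 1.026% in replicate 1, above every control, and 0.8473% in replicate 2, within the range of the controls.

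Genes that assemble, regulate or feed the chain were read from 7 lists, and none of their measured members passed over all genes. Assembly factors for complex I (13 of 13 measured) had a log2 fold change median of -0.17, with 10 negative. Ndufaf4 was at 81.5, 94.05 and 40.9 FPKM in controls versus 13.8 and 35.9 FPKM (log2 fold change -1.56, adjusted p = 0.504), and Ndufaf2 at 42.2, 39.9 and 66.0 FPKM versus 68.8 and 26.4 FPKM. Assembly factors for complexes II, III and V (12 of 15 names measured) had a median of -0.27, with 9 negative. Uqcc2 was at 282, 173 and 272 FPKM versus 311 and 134 FPKM, and Sdhaf4 at 121, 65.5 and 82.5 FPKM versus 64.3 and 49 FPKM. Complex IV assembly factors (16 of 21) had a median of -0.25, with 9 negative and 7 positive. Cox17, the copper chaperone, was at 188, 391 and 363 FPKM versus 601 and 242 FPKM, and Cox14 at 427, 190.3 and 455 FPKM versus 365 and 179 FPKM. In Uqcc2 and Cox17 deficient-labelled replicate 1 was the highest library.

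Partners of the chain and enzymes that feed it had positive medians. Cytochromes c, carriers and the ATPase inhibitor (10 of 10 measured) had a log2 fold change median of 0.18, with 7 positive. Their median difference from the control mean, on log2(FPKM + 1), was 0.20 in deficient-labelled replicate 1 and 0.19 in replicate 2. Slc25a5, an ADP/ATP carrier, was at 551, 612 and 465 FPKM in controls versus 610.1 and 669 FPKM, and Atpif1, the ATPase inhibitor, at 256, 418 and 334 FPKM versus 505 and 482 FPKM (log2 fold change 0.58, adjusted p = 0.622). Both deficient-labelled libraries exceeded every control for Atpif1. Tricarboxylic acid cycle genes (17 of 17) had a median of 0.19, with 11 positive. Here the median difference from the control mean was 0.21 in deficient-labelled replicate 1 but -0.096 in replicate 2. Idh2, picked after its values were seen, went the other way, at 299, 216 and 260 FPKM versus 148 and 126 FPKM. Its log2 fold change was -0.90 (limma, adjusted p = 0.439). Mdh2 was at 380, 310.3 and 291 FPKM versus 346 and 422 FPKM, and Idh3g at 187, 242 and 258 FPKM versus 296 and 187 FPKM. In these lists deficient-labelled replicate 2 was the lowest library in 1 of 10 and 5 of 17 genes, against 45 of 78 members and 25.6% of all genes tested. It was the lowest in 23.1% of assembly factors for complex I, 50% for complexes II, III and V and 43.8% for complex IV. For mitochondrial and cytosolic ribosomal protein genes this was 47.2% and 84.4%, so a low replicate 2 was not particular to the members.

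Genes of mitochondrial transcription and biogenesis (17 of 20 measured, 16 tested) had a median of -0.076, with 8 positive and 8 negative. Ssbp1, which coats single-stranded mitochondrial DNA, was at 139.7, 136 and 159 FPKM in controls versus 56.05 and 44.0 FPKM. The groups were far apart (log2 fold change -1.52, SE 0.28), but Ssbp1 was not called among all genes (limma, adjusted p = 0.345). Gabpb1, a partner of the ETS factor GABPA, was at 72.3, 27.8 and 36.6 FPKM versus 17.7 and 28.1 FPKM. Import and inner membrane genes (22 of 25) had a median of 0.099, with 12 positive and 10 negative. Hspe1, a matrix chaperonin, was at 229.6, 316 and 317 FPKM versus 314 and 211 FPKM, and Phb2 at 243, 256 and 182 FPKM versus 244 and 185 FPKM.

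Promoters were read because many respiratory chain genes are known targets of NRF1, of the ETS factor GABPA and of YY1. RefSeq promoters of build GRCm38.p6 (250 bases before to 50 after the start) were found for 67 of 78 members. The NRF1 palindrome, which reads the same on both strands and is in capitals in the first set of runs, occurred in 5 of 67 members (7.46%) and in 1.07% of 27025 genes with a promoter. A wider NRF1 form, with any base at its sixth position and so including the palindrome, occurred in 16 (23.9%) and 5.19%. CCGGAAGT, a GABPA motif, occurred on either strand in 5 members (7.46%) and 4.31% of genes, and AAGATGGCG, a YY1 motif, in 8 (11.9%) and 1.64%. The 27025 genes include genes outside the 11643 measured, whereas every member was measured. The shares therefore do not compare members with other expressed genes. A match is a description of letters in this window and was not tested as a binding site.

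The 5 members with the palindrome are printed here because they include Atp5k, with the 4.66-fold ratio between the deficient-labelled libraries, and Ndufa11, whose control values had the largest spread relative to their mean. Each run is written 5′ to 3′ on the gene's strand with the motif in capitals. The first 4 runs are of 60 bases before the start site, at chr5:108434415-108434474 (minus strand), chr15:102671055-102671114 (minus), chr5:115349086-115349145 (minus) and chr17:56717677-56717736 (plus). The last, for Uqcrc1, is of 30 bases at chr9:108936668-108936697 (plus), where the motif ends 40 bases after the start.
Atp5k: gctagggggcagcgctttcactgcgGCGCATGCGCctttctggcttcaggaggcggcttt
Atp5g2: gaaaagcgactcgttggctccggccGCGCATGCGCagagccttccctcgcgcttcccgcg
Cox6a1: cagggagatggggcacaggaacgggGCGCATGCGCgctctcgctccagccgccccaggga
Ndufa11: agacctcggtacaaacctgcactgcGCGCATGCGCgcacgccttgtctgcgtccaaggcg
Uqcrc1: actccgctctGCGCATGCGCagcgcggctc
All 5 had deficient-labelled replicate 1 above replicate 2, as 67 of all 78 members did. Their differences in log2(FPKM + 1) were 0.66 to 2.22, with a median of 0.80. In the 62 other members with a promoter the differences were -0.41 to 2.13, with a median of 0.57. For the wider NRF1 form it was 0.62 in the 16 members with a match and 0.70 in the 51 without, and for GABPA 0.55 in 5 and 0.69 in 62, so the direction differed between motifs.

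For YY1, 2 of the 8 members with the motif had groups that did not overlap, both lower. Over all members this held in 10 of 78, and over all genes in 15.9%. Both carried the motif shortly after the annotated start, as did Ndufc1, Ndufs4, Ndufs6, Atp5j2 and Atp5sl, whose groups overlapped. Ndufs7 and Ndufa9, chosen by their values, are shown as runs of 30 bases with the motif in capitals. The run of Ndufs7 is at chr10:80249463-80249492 (plus strand) and that of Ndufa9 at chr6:126849096-126849125 (minus strand).
Ndufs7: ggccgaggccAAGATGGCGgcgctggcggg
Ndufa9: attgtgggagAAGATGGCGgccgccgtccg
The 8 members with this motif had a median difference between the deficient-labelled libraries of 0.64, and the 59 without it 0.69.

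Several members share sequence with other annotated genes, so that their values depend on how reads were assigned, which is not given in the sources used here. In 15 of 78 members a transcript matched another gene's transcript at 95% identity or more over at least 50% of its length. Atp5l had 9 such copies, Atp5h 4 and Uqcrb 3, and Atp5g1, Atp5g2, Ndufs3 and Cox7c were also among them. Exons of 28 members overlapped those of another gene, 25 of them on the opposite strand, including Cox4i1 with Emc8, Atp5a1 with Haus1, Uqcrc2 with Pdzd9 and Ndufa11 with Vmac. Without strand, reads of such pairs cannot be told apart.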

How the data were processed

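RNA of sorted HSCs was sequenced in 5 libraries, 3 control and 2 deficient-labelled, grouped and numbered by their titles. The authors deposited FPKM per gene symbol. The submitters' processing notes name mm9, TopHat and edgeR without saying what each did. How genes were annotated and FPKM calculated or filtered is not given in the sources used here. Read totals are unknown, so no counting interval is given, and very abundant genes depress the rest of a library's FPKM.

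The 10570 genes averaging 1 FPKM or more were fitted on log2(FPKM + 1), which understates changes of low genes, with limma 3.58.1 in R 4.3.3 (trended eBayes, a group term alone, two-sided, Benjamini-Hochberg over all genes, threshold 0.05). The fit was tested on simulated data. Counts of members are given beside the same share over all genes, with no test over the list. The members and lists were chosen with earlier results of these data known. Genes named are, per complex, the most abundant, those without overlap between groups, core subunits, paralogues and members at 0, and per pathway list the 2 most abundant; others, such as Ndufs4, Ndufa11, Ndufa13, Ndufa1, Uqcrb, Atp5l and Atp5j2, were chosen after their values were seen. Transcript lengths and exon overlaps come from GENCODE M21 (GRCm38), copies from BLAST 2.17.0 and promoters from RefSeq. Scripts ran in Python 3.11.15 (scipy 1.17.1, pandas 2.3.3, matplotlib 3.10.9). A planned comparison of paralogous proteins was not made. Some planned results for single genes are not reported here.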

Additional observations from a re-analysis of the deposited data

How the results depend on the processing

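The alternatives were other pseudocounts, filters, scalings and eBayes settings, the replicate number as a block, no genes listed at 0, and each library left out; counts of library order, the run without Atp5s and Atp5sl and the run with Ndufa4 in complex IV were added after the data were seen. No member was called under any of them. The 15 members with separate groups kept their sign in every run that held them (Cox4i2 drops out where genes listed at 0 are removed). With 3 and 2 libraries only large changes could pass, and a fit with a single deficient-labelled library assumes that it varies like the controls. Depth sets no limit that can be stated, since reads are unknown. Median-of-ratios scaling gave member medians of 0.050 (all), -0.059 (complex I), 0.29 (complex II) and 0.075 (complex IV), 6 members lower and 8 higher without overlap, and a ratio of summed FPKM of 1.04. Quantile normalization gave 17 members highest in deficient-labelled replicate 1 and 37 lowest in replicate 2. The replicate block moved the complex II median to 0.093 and changed no call; same-numbered libraries did not deviate together (correlations 0.035 and 0.0069), and 2 shared numbers cannot establish pairing. With each library left out in turn, medians ranged from -0.45 to 0.21 for all members, -0.48 to 0.17 for complex I, -0.00044 to 0.33 for complex II, -0.52 to 0.38 for complex III, -0.45 to 0.27 for complex IV and -0.15 to 0.15 for complex V. Members lower without overlap numbered 10 to 49 (33.5% of all genes at the highest count) and higher 5 to 36 (26.7%), and the ratio of summed FPKM was 0.725 to 1.19. The extremes of the medians and of the ratio, and the highest counts, came from leaving out a deficient-labelled library. The cause of these shifts was not tested. The number of members at an unadjusted p under 0.05 ranged from 1 to 15 with a library left out (15 without deficient-labelled replicate 1, where 10.4% of all genes passed), and was 7 with quantile normalization (8.68% of all genes).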
